A study of Vitis vinifera with 6 samples.

Results

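The PR10 genes examined here are 8 genes of Vitis vinifera with consecutive or nearly consecutive identifiers on chromosome 5, VIT_05s0077g01530, VIT_05s0077g01540, VIT_05s0077g01550, VIT_05s0077g01560, VIT_05s0077g01570, VIT_05s0077g01580, VIT_05s0077g01600 and VIT_05s0077g01690. They were chosen by identifier as tandem copies of the PR10 (Bet v 1-like) family, and they are 8 of the 29971 genes in the expression table. The table holds no gene names, so the family name comes from the choice of identifiers and was not checked against sequence. A RefSeq gene table for the assembly ASM3070453v1 names 8 PR10 genes in a row on chromosome 5, in the order PR10.8, PR10.9, PR10.7, PR10.6, PR10.5, PR10.4, PR10.2 and PR10.3. In that row 3 pseudogenes and 1 other protein-coding gene lie between them. It holds 0 of the identifiers used by the authors, so no copy could be given a RefSeq name or sequence, and positions are not given because the authors' genome build is not named.

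PR10 proteins are small, mostly acidic proteins of the plant cell interior, and the family is named together with the birch pollen allergen Bet v 1, whose fold encloses a large hydrophobic cavity. They are classed as pathogenesis-related because many of them accumulate after infection, wounding or treatment with defence hormones, and binding of small ligands and ribonuclease activity have been reported for some. The genes commonly lie in tandem arrays of closely related copies, as in grapevine.

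The buds came from ‘Jingyanjing’, a diploid grapevine (2X), and from its colchicine-induced autotetraploid (4X), and RNA-Seq libraries were made from their terminal buds, 3 of each ploidy. Both kinds of vine came from tissue culture and grew in 1 vineyard under the same standard management. Buds of several vines were mixed for each library, and the authors count each mix as a biological replicate. Sampling took place roughly a week ahead of bud abscission in 4X. As both ploidies belong to 1 accession, ploidy and any other change that arose while the 4X was raised cannot be told apart.

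Expression is given as FPKM, a count of fragments divided by transcript length and by the mapped fragments of the library, so that levels can be set side by side between genes. The number of fragments behind a value is not in the table, so the error given is the spread among the 3 libraries of each ploidy. On the first principal component of the genes tested (38.1% of the variance) 4X replicate 1 lay at -15.6, near the 2X libraries at -22.8 to -18.6, whereas 4X replicates 2 and 3 lay at 39.9 and 37.1. Values with and without 4X replicate 1 are therefore given. KNAP2 (VIT_18s0001g08380), a KNOTTED-like homeobox gene of the kind active in shoot meristems and the bud marker used here, was present in every library, at 63.6 to 87.3 FPKM in 2X and 43.2 to 56.8 FPKM in 4X. Its 4X libraries all lay below the 2X libraries (log2 fold change -0.58, standard error 0.15, limma adjusted p = 0.195), as held for 1604 of the 18119 genes tested. The paper lists KNAP2 among auxin response genes decreased in 4X, so its level is no measure of tissue apart from ploidy. The part of tissue composition in the PR10 values was not tested. In such bulk samples, a change in the number of cells that express a gene and a change in the RNA per cell cannot be told apart.

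VIT_05s0077g01580 was the most abundant copy in 6 of 6 libraries. Its level was 27.3, 57.7 and 37.2 FPKM in 2X replicates 1, 2 and 3, and 86.4, 73.3 and 209 FPKM in 4X replicates 1, 2 and 3. The lowest 4X library was thus above the highest 2X library, and 4X replicate 3 stood far above the other 5. Among all genes of the table this copy ranked between 3459 and 6564 by FPKM in the 2X libraries. In 4X its rank was 2372 and 2599 in replicates 1 and 2 and 905 in replicate 3. It held between 70.3% and 89.8% of the summed FPKM of the 8 copies.

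VIT_05s0077g01530, the first of the run by identifier, was second in 6 of 6 libraries. It was at 6.50, 5.55 and 12.6 FPKM in 2X replicates 1, 2 and 3, and at 8.16, 10.9 and 9.95 FPKM in 4X. The highest and the lowest of these values both belonged to 2X, and the 4X libraries lay between them. No library of VIT_05s0077g01530 came within the range of VIT_05s0077g01580.

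VIT_05s0077g01570 and VIT_05s0077g01560 were copies of low level, with means of 2.23 and 1.31 FPKM over the 6 libraries. VIT_05s0077g01570 was at 0.712, 1.15 and 1.44 FPKM in 2X replicates 1, 2 and 3. In 4X it was at 0.350 FPKM in replicate 1, below every 2X library, whereas replicates 2 and 3 had 2.90 and 6.80 FPKM, above every 2X library. VIT_05s0077g01560 followed the same pattern, except that its lowest library was 2X replicate 1. It was listed at 0 FPKM there, while 2X replicates 2 and 3 had 0.976 and 0.789 FPKM. Its 4X values were 0.326, 1.47 and 4.33 FPKM in replicates 1, 2 and 3. VIT_05s0077g01570 was above VIT_05s0077g01560 within 6 of 6 libraries, although their ranges over all libraries overlapped.

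**Figure D1:**
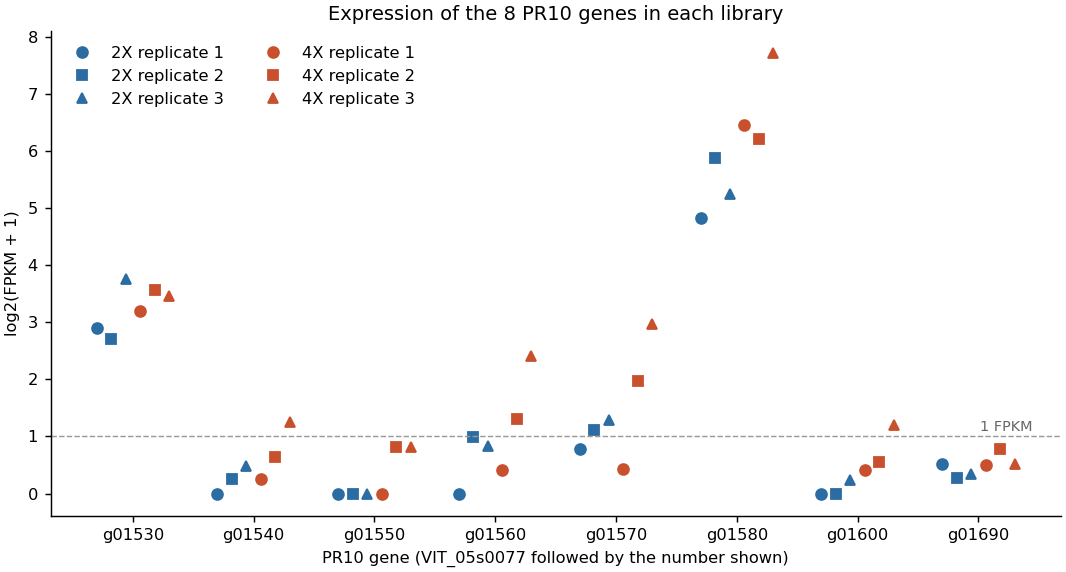
Expression of each PR10 gene as log2(FPKM + 1), with 1 point for each library, 2X in blue and 4X in red, and the marker shape for the replicate. VIT_05s0077g01580 and VIT_05s0077g01530 stand above the other copies in every library, and 4X replicate 3 is the highest library for 6 of the 8 genes.

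The other 4 copies had means below 1 FPKM, between 0.253 and 0.454 FPKM, and their order among themselves changed from library to library. VIT_05s0077g01540 was listed at 0, 0.193 and 0.399 FPKM in 2X replicates 1, 2 and 3, and at 0.194, 0.567 and 1.37 FPKM in 4X. VIT_05s0077g01600 was listed at 0, 0 and 0.173 FPKM in 2X and at 0.328, 0.463 and 1.30 FPKM in 4X, so that each 4X library was above each 2X library. VIT_05s0077g01550 was listed at 0 in 4 libraries, all of 2X and 4X replicate 1, and 4X replicates 2 and 3 had 0.749 and 0.768 FPKM. VIT_05s0077g01690, which stands apart from the run by identifier, ranged from 0.214 to 0.436 FPKM in 2X and from 0.419 to 0.720 FPKM in 4X, and the ploidies overlapped. For VIT_05s0077g01540 the values above 0 were 1.00, 2.07, 1.00, 2.94 and 7.11 times the smallest of them, that is within 0.15 of whole multiples. Of the values above 0, 2 of 2 of VIT_05s0077g01550, 2 of 4 of VIT_05s0077g01600 and 4 of 6 of VIT_05s0077g01690 were as near to whole multiples of the smallest. The smallest value of each gene is in these counts and is 1.00 by definition. Values of any origin can also fall within 0.15 of a whole multiple, so the counts do not settle the number of fragments. Values this low rest on few fragments, whose number is not in the table, and no fold change is given for these 4 genes. Of the 24 values of the 8 copies in 2X, 7 were listed at 0, against 1 of the 24 in 4X. These zeros belonged to 4 copies of low level, and VIT_05s0077g01550 alone was at 0 in every 2X library. The like count over all genes was not made, so this is no result on ploidy.

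Sequence reads of closely related copies can be assigned to the wrong copy, and how the authors counted multiply mapped reads is not given in the sources used here. Of the 6 minor copies 5 were highest in 4X replicate 3, where VIT_05s0077g01580 was highest too, and the part of shared reads in their values was not tested. The levels of 3 copies relative to VIT_05s0077g01580 are given by library as a description only. VIT_05s0077g01570 was at 1.99% to 3.96% of VIT_05s0077g01580 in 5 libraries, but at 0.406% in 4X replicate 1. The level of VIT_05s0077g01560 relative to VIT_05s0077g01580 was 1.69% to 2.12% in 4 libraries and 0.377% in 4X replicate 1, and in 2X replicate 1 it was listed at 0. In 4X replicate 1 VIT_05s0077g01580 was above its 2X range while VIT_05s0077g01560 and VIT_05s0077g01570 were not. The last 2 genes had only 0.326 and 0.350 FPKM there. Such values are as low as those of the copies with means below 1 FPKM and likewise rest on few fragments, so their low shares are uncertain. VIT_05s0077g01530 ranged from 4.77% of VIT_05s0077g01580 in 4X replicate 3 to 34.0% in 2X replicate 3.

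**Figure D2:**
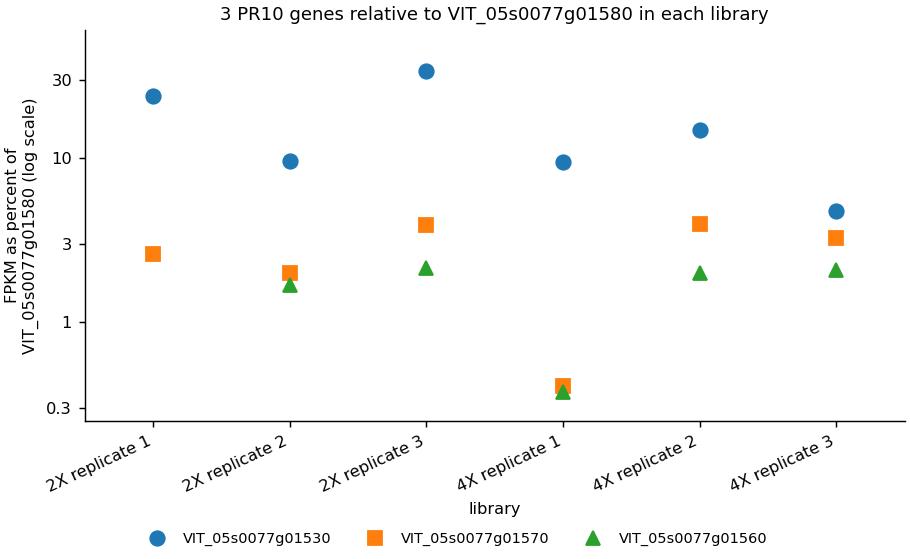
FPKM of 3 PR10 genes as a percentage of the FPKM of VIT_05s0077g01580 in the same library, on a log axis, with 1 point for each library (VIT_05s0077g01560 was listed at 0 in 2X replicate 1 and is not drawn there). In 4X replicate 1 VIT_05s0077g01570 and VIT_05s0077g01560, at only 0.350 and 0.326 FPKM there, are at 0.406% and 0.377%. The largest share of VIT_05s0077g01530 is 34.0% in 2X replicate 3.

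Expression was compared between 4X and 2X to ask whether the copies differed with ploidy. All 8 copies had a higher mean FPKM in 4X than in 2X, where this mean was higher for 41.0% of all genes listed and 52.9% of the genes tested. The genes listed include 6728 at 0 in every library, which lowers every share over all genes listed. The test was limma, a linear model on log2(FPKM + 1) that shares information on variance between genes. It was run on 18119 genes, those that averaged 1 FPKM or more across the 6 libraries, among them 4 of the 8 copies. Log2 fold changes are 4X over 2X on this scale, which understates the change of genes near 1 FPKM, with Benjamini-Hochberg adjustment of p over all genes tested. A gene was called at an adjusted p under 0.05. None of the 4 copies was called, with 0 higher and 0 lower in limma, where the calls over all genes tested came to 0.0607% higher and 0.0276% lower. The paper, which tested with Cufflinks, reports many more differing genes, so the lack of a call here does not show equal expression. At an unadjusted p under 0.05, 1 of the 4 was higher and 0 were lower, against 7.79% and 6.53% of the genes tested. The median log2 fold change of the 4 copies was 0.75, and that of all genes tested was 0.01. Without 4X replicate 1 these medians were 1.33 and 0.03.

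VIT_05s0077g01580 averaged 40.8 ± 15.5 FPKM among the 2X libraries and 123 ± 74.8 FPKM among the 4X libraries (SD, n = 3), a ratio of 3.01. The log2 fold change was 1.47 (standard error 0.43, 95% interval 0.45 to 2.50, limma adjusted p = 0.218, 0.0116 before adjustment). A two-sided exact permutation test of the 6 libraries gave p = 0.1, the smallest value that 3 libraries against 3 can give. The ploidies did not overlap, with 4X above, for 1 of the 4 copies tested, this one, and for 11.2% of the genes tested. Counting the genes not tested, this held for 2 of the 8 copies, VIT_05s0077g01600 being the other, and for 8.12% of all genes listed. That share is lowered by the genes at 0 in every library. Without 4X replicate 3 the mean of 4X was 79.8 FPKM and the ratio 1.96, so the size of the difference rested in part on that library. Its log2 fold change was then 1.01 (standard error 0.30, limma adjusted p = 0.476). Without 4X replicate 1 the ratio was 3.46 and the log2 fold change 1.65 (standard error 0.48, limma adjusted p = 0.124).

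For VIT_05s0077g01560 and VIT_05s0077g01570 the comparison depended on single 4X libraries. The log2 fold change of VIT_05s0077g01570 was 0.73 (standard error 0.59, 95% interval -0.68 to 2.14, limma adjusted p = 0.635). Without 4X replicate 1 it was 1.41 (standard error 0.33, limma adjusted p = 0.0762), and without 4X replicate 3 it was 0.14 (standard error 0.47). VIT_05s0077g01560 had a log2 fold change of 0.77 (standard error 0.53, 95% interval -0.48 to 2.02, limma adjusted p = 0.566). This became 1.25 without 4X replicate 1 and 0.25 without 4X replicate 3, again with no call. With 4X replicate 1 left out, 3 of the 4 copies had an unadjusted p under 0.05 and a higher level in 4X, against 10.2% of the genes tested, and 0 were called, against 1.02%. Array weights, which let limma weight each library and were chosen after seeing the data, called 3 of the 4 copies higher, VIT_05s0077g01560, VIT_05s0077g01570 and VIT_05s0077g01580, but also 12.5% of the genes tested, with most of the weight of 4X on replicate 3. In 4X replicates 2 and 3, 6 of the 8 copies lay above every 2X library, and 15.6% of all genes listed did so. The genes listed include 6728 at 0 in every library, which cannot do so and lower that share. Among the 6 copies, VIT_05s0077g01540, VIT_05s0077g01550 and VIT_05s0077g01600 had means below 1 FPKM.

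VIT_05s0077g01530 averaged 8.23 ± 3.85 FPKM in 2X against 9.66 ± 1.38 FPKM in 4X (SD, n = 3). The log2 fold change was 0.28 (standard error 0.28, 95% interval -0.39 to 0.94, limma adjusted p = 0.715), an interval that holds both no change and a rise of nearly 1 on the log2 scale. The 2X libraries were themselves apart, with 2X replicate 3 at 12.6 FPKM. Without this library the log2 fold change was 0.60 (standard error 0.16, limma adjusted p = 0.276). Without 4X replicate 1 it was 0.38 (standard error 0.31, limma adjusted p = 0.546).

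**Figure D3:**
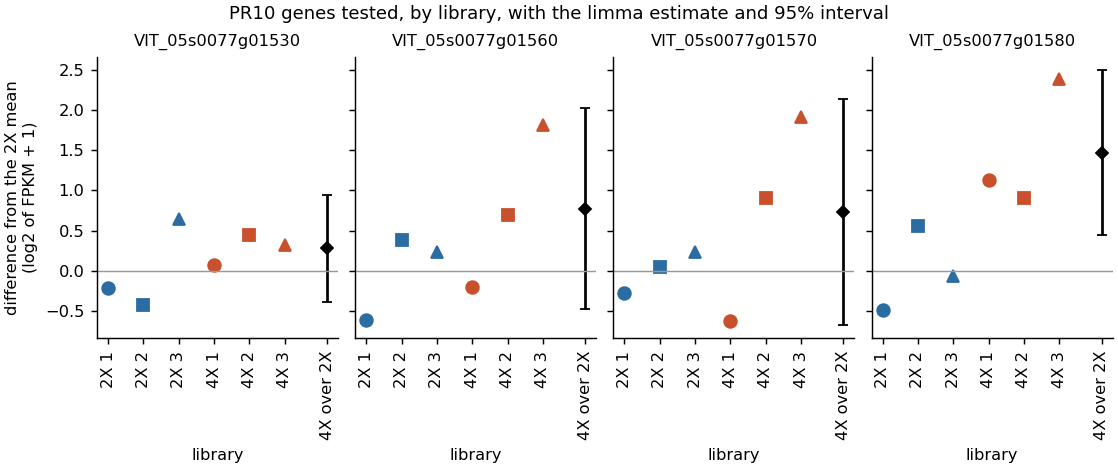
Difference of each library from the mean of the 2X libraries, as log2(FPKM + 1), for the 4 PR10 genes tested, with the limma estimate of 4X over 2X and its 95% interval as a black diamond and bar. The interval of VIT_05s0077g01580, from 0.45 to 2.50, lies above 0 before adjustment for the number of genes, and in VIT_05s0077g01560 and VIT_05s0077g01570 4X replicate 1 lies among or below the 2X libraries.

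By library, the summed FPKM of the 8 copies was 35.0, 65.8 and 52.9 in 2X replicates 1, 2 and 3, and 96.2, 91.0 and 234 in 4X. Most of this sum was VIT_05s0077g01580. Without it the sum was 7.65, 8.08 and 15.7 FPKM in 2X and 9.77, 17.7 and 24.9 FPKM in 4X, and 4X replicate 1 then lay within the 2X range. The highest library was 4X replicate 3 for 6 of the 8 copies, where this library was the highest for 18.5% of all genes with a value above 0. For VIT_05s0077g01530 the highest library was 2X replicate 3, and for VIT_05s0077g01690 it was 4X replicate 2. The 4 copies tested had a median difference from the 2X mean of -0.07, 0.80 and 1.86 on the log2 scale in 4X replicates 1, 2 and 3. For all genes tested these medians were -0.01, 0.03 and 0.02.

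The genes next to the PR10 copies by identifier, VIT_05s0077g01400 to VIT_05s0077g01850, were examined to see whether the values belonged to a longer stretch of the chromosome. They are the genes of this range outside the 8 copies, and whether any is a further PR10 gene was not checked. Of these 37 genes, 13 stand before the copies, 8 between them and 16 after them, and 26 were tested. Of the 8 between the copies, 5 were listed at 0 in all libraries and 1 was tested. This gene, VIT_05s0077g01670, had 15.2 ± 3.40 FPKM in 2X against 11.6 ± 3.51 FPKM in 4X (SD, n = 3), a log2 fold change of -0.38 (standard error 0.25, limma adjusted p = 0.541). The 26 neighbours had a median log2 fold change of 0.00, with 13 above and 13 below 0, and limma called 0 of them. At an unadjusted p under 0.05, 2 of the 26 were higher and 2 lower, near the 7.79% and 6.53% of all genes tested. The neighbour with the largest log2 fold change was VIT_05s0077g01720, which the study's annotation lists under lipase activity. It was at 1.75 to 2.35 FPKM in 2X and 4.06 to 7.69 FPKM in 4X, with a log2 fold change of 0.99 (standard error 0.24, limma adjusted p = 0.171). VIT_05s0077g01730, listed under the same activity, was at 0.528 ± 0.210 FPKM in 2X against 1.33 ± 0.311 FPKM in 4X (SD, n = 3) and was not tested. Its 4X libraries too lay above the 2X libraries, as did those of VIT_05s0077g01480, with 12.0 ± 2.01 and 16.8 ± 1.74 FPKM (SD, n = 3). VIT_05s0077g01400 lay lower in every 4X library, with 3.07 ± 0.162 FPKM in 2X against 2.27 ± 0.171 FPKM in 4X (SD, n = 3). Of the 26 neighbours tested, the ploidies did not overlap in 2 with 4X above and 1 with 4X below. Over all genes tested this held for 11.2% above and for 1604 of 18119 below, so it was not particular to these neighbours. The most abundant neighbour, VIT_05s0077g01840, had 1030.0 ± 166 FPKM in 2X against 961 ± 47.2 FPKM in 4X (SD, n = 3). Without 4X replicate 1, 2 neighbours were called lower, VIT_05s0077g01410 (limma adjusted p = 0.0212) and VIT_05s0077g01470 (limma adjusted p = 0.0319), and 0 higher. This omission led to calls in 3.14% of all genes tested as lower and 1.02% as higher. In both neighbours the omitted library was the highest, above every 2X library, so they were lower only in 4X replicates 2 and 3. VIT_05s0077g01410, a gene of low level, had 1.45, 1.6 and 1.35 FPKM in 2X and 3.15, 0 and 0 FPKM in 4X. VIT_05s0077g01470 had 49.4, 57.2 and 43.3 FPKM in 2X and 70.6, 29.0 and 27.6 FPKM in 4X.

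**Figure D4:**
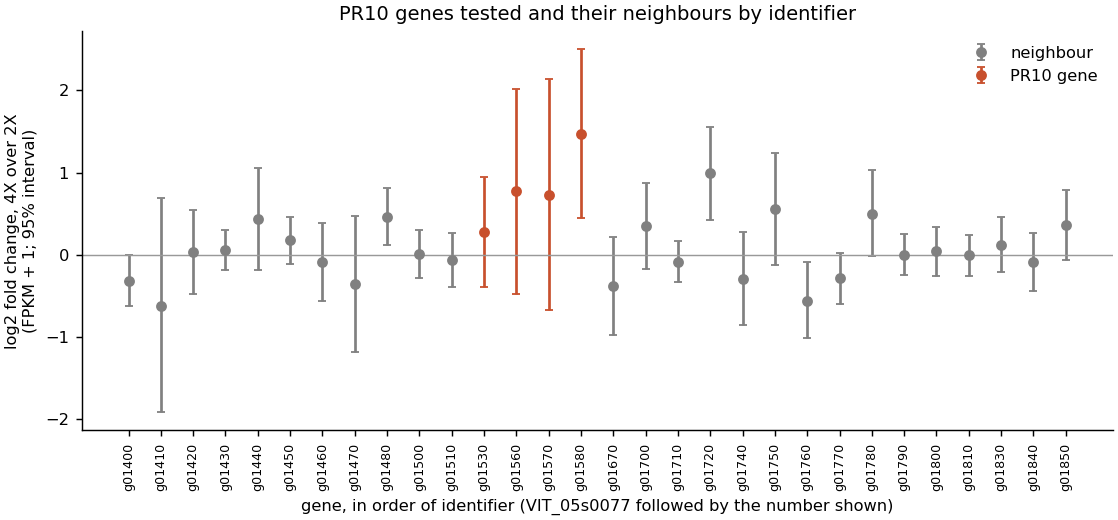
Log2 fold change of 4X over 2X on log2(FPKM + 1), with the 95% interval of limma, for the 4 PR10 genes tested (red) and the 26 neighbours tested (grey) in order of identifier. The largest value is that of VIT_05s0077g01580, 1.47, and the largest among the neighbours is that of VIT_05s0077g01720, 0.99.

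PR10 genes are among the defence genes that respond to ethylene in several plants, so the copies were set beside the 10 ethylene genes of the study's primer table. That table was drawn up by the study on these buds, so the direction of its genes is not independent evidence. Of the 10 genes 8 were tested, and all 8 had a positive log2 fold change, with a median of 1.34 (7 of 8 without 4X replicate 1, GLIP2 then being at -0.12). Limma called 0 of them, where 0.0607% of all genes tested were higher and called. The paper, which tested with Cufflinks, reports ACO1 and ethylene response genes such as PR-4, PR-4B and HCHIB as increased in 4X. It also reports higher expression of PR-4B and of ERF genes in 4X plantlets. The 0 calls therefore belong to this test on FPKM and do not show equal expression. At an unadjusted p under 0.05, 6 of the 8 were higher, against 7.79% of the genes tested. PR-4 (VIT_14s0081g00030), a pathogenesis-related protein of the chitin-binding kind, had 60.3, 104 and 70.6 FPKM in 2X and 230.0, 145 and 176 FPKM in 4X. HCHIB (VIT_03s0038g03400), a basic chitinase, had 17.5, 33.9 and 11.5 FPKM in 2X and 79.2, 29.2 and 67.2 FPKM in 4X. ERFB-6 (VIT_09s0002g09140), a transcription factor of the ethylene response, had 1.22, 0.861 and 2.74 FPKM in 2X and 3.56, 6.25 and 10.6 FPKM in 4X. The log2 fold changes of these 3 genes were 1.23, 1.45 and 1.54, with adjusted p of 0.124, 0.248 and 0.184 from limma. Over all 8 ethylene genes they spread from 0.39 in GLIP2 to 2.26 in ACO1, with 0.63 in cat2, 0.74 in ERFA-5 and 1.53 in PR-4B, and the value of VIT_05s0077g01580, 1.47, lay inside this range.

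In 4X replicate 1 the median difference from the 2X mean over the 8 ethylene genes was 1.49 on the log2 scale, against 0.75 in 4X replicate 2 and 1.20 in 4X replicate 3. For the 4 PR10 genes it was -0.07 in 4X replicate 1, where VIT_05s0077g01560 and VIT_05s0077g01570 had only 0.326 and 0.350 FPKM. Of the 10 ethylene genes, 5 were highest in 4X replicate 1 and 5 in 4X replicate 3, and ERFB-6, at 0.87, 1.54 and 2.21 above its 2X mean on the log2 scale in 4X replicates 1, 2 and 3, had its lowest 4X value in replicate 1 as VIT_05s0077g01560 and VIT_05s0077g01570 did. VIT_05s0077g01580, at 1.13 above its 2X mean in 4X replicate 1, was the PR10 gene nearest to the ethylene genes in that library. With 4X replicate 1 left out, 2 of the ethylene genes were called higher, ERFB-6 (limma adjusted p = 0.0453) and ACO1 (VIT_11s0016g02380), an ACC oxidase that forms ethylene (limma adjusted p = 0.0190), and 1.02% of all genes tested were called higher in that fit.

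**Figure D5:**
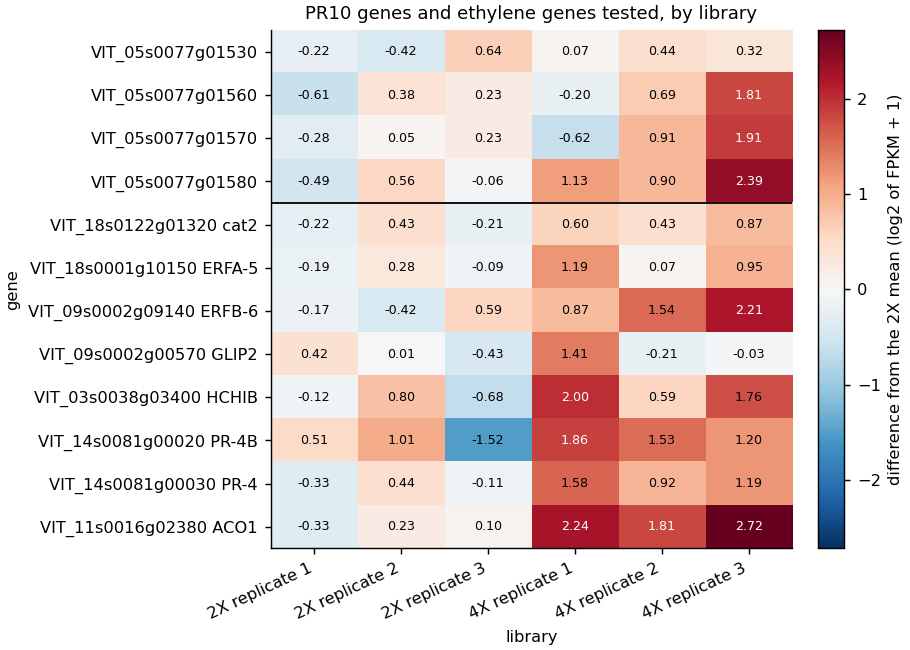
Difference of each library from the mean of the 2X libraries, as log2(FPKM + 1), for the 4 PR10 genes tested (above the line) and the 8 ethylene genes tested (below it), with the value printed in each cell. In 4X replicate 1 the values of VIT_05s0077g01560 and VIT_05s0077g01570 are -0.20 and -0.62, from 0.326 and 0.350 FPKM, whereas PR-4 is at 1.58 and HCHIB at 2.00.

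The genes whose pattern over the 6 libraries was most like that of the 4 PR10 genes were also listed, by the root mean square difference from their mean profile of centred log2(FPKM + 1). The 5 nearest of 18115 genes were VIT_07s0141g00690, VIT_05s0049g02240, VIT_07s0104g01350, VIT_18s0001g13200 and VIT_09s0002g02950, the nearest at a difference of 0.147 on the log2 scale. The PR10 genes themselves lay at 0.192 (VIT_05s0077g01560), 0.328 (VIT_05s0077g01570), 0.475 (VIT_05s0077g01580) and 0.547 (VIT_05s0077g01530) from this profile. The root mean square of the profile itself was 0.632. Only VIT_05s0077g01560 was as near as the 5 listed genes, the last of which lay at 0.200, and the most abundant copy, VIT_05s0077g01580, was not. Each of the 4 PR10 genes is part of the mean profile, which shortens its own distance. The distances of PR10 genes and of outside genes are therefore not on equal terms. VIT_18s0001g13200 is CKX5 of the study's primer table, a cytokinin oxidase. It had 2.04, 2.45 and 3.51 FPKM in 2X and 3.11, 5.22 and 7.50 FPKM in 4X, so that 4X replicate 1 lay within the 2X range. VIT_07s0141g00690, which the study's annotation lists under transcription regulator activity, ranged from 7.93 to 15.8 FPKM in 2X and had 15.1, 21.2 and 48.9 FPKM in 4X. In both genes, as in most PR10 copies, 4X replicate 3 was the highest library. The nearest genes were picked for their likeness, so it is given with no test.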

How the data were processed

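Terminal buds of 2X and 4X ‘Jingyanjing’ were measured by RNA-Seq in 3 libraries each, grouped by ploidy as the labels give it. The authors quality-trimmed the reads (FASTX-Toolkit), mapped them with TopHat2 2.0.14, which runs Bowtie2, against the Ensembl Plants grapevine genome, and tested expression with Cufflinks 2.2.1. They deposited FPKM per gene and library. Which tool gave the FPKM, the build, the strand handling and how multiply mapped reads were counted are not given in the sources used here. All columns of values were used as deposited. The Cufflinks test was not rerun, since it takes reads as input.

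Genes averaging 1 FPKM or more were fitted together on the log2 scale after adding a pseudocount of 1, using limma 3.58.1 (R 4.3.3) with equally weighted libraries and a variance trend. Summaries used Python 3.11.15 with pandas 2.3.3, and single genes were also compared by exact permutation over the 6 libraries. The fit was tested on simulated data with independent errors for each gene and library. No library as a whole was shifted there, so the position of 4X replicate 1 was not covered. The members and gene lists were chosen with earlier results of these data known. Genes named in the text are the 8 copies, neighbours by identifier that reach 10 FPKM, are called or do not overlap between ploidies, the ethylene genes of the primer table and the 5 genes of most similar profile, of which examples are described. VIT_05s0077g01670 was also singled out as the tested gene between the copies, and KNAP2 as bud marker. Alternatives were a pseudocount of 0.1, 2 other filters, median scaling, quantile normalization, no trend, a replicate block, each library left out in turn and, added after seeing the data, array weights. No sequences are printed.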

Additional observations from a re-analysis of the deposited data

How the results depend on the processing

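Under the 13 other settings chosen at the start limma called 0 PR10 genes higher and 0 lower in each, so leaving out any single library gave 0. All 4 tested copies kept a positive log2 fold change in 13 of 13. The log2 fold change of VIT_05s0077g01580 ranged from 1.01 to 1.76 and its adjusted p from 0.124 to 0.594. For VIT_05s0077g01530, VIT_05s0077g01560 and VIT_05s0077g01570 the ranges were 0.07 to 0.60, 0.25 to 1.65 and 0.14 to 1.41. Array weights, which were chosen after seeing the data and put a weight of 5.11 on 4X replicate 3 and 0.306 on 4X replicate 1, called 3 of the 4 copies higher (adjusted p of 0.0264, 0.0240 and 0.0129 for VIT_05s0077g01560, VIT_05s0077g01570 and VIT_05s0077g01580), and 12.5% of all genes tested were called higher with them. Over all genes these 13 settings called 0 to 185 higher and 0 to 569 lower, against 11 and 5, with the most when 4X replicate 1 was left out.

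Same-numbered libraries of the ploidies showed no strong shared deviation (Pearson r across genes of -0.008, -0.051 and 0.087). Pairs of unlike number ranged from -0.135 to 0.126. With so few libraries this cannot settle whether the numbers pair the samples, which the labels do not say. With the replicate number as a block, 0 genes were called higher and 0 lower, and the log2 fold change of VIT_05s0077g01580 was 1.47 (adjusted p = 0.261 from limma). With no filter on low values 0 of the 4 copies below 1 FPKM were called. As fragment counts are not in the table, no counting interval can be set on these 4 copies.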
